A study of Mus musculus with 9 samples.

Results

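The genes described here build the beaded filaments of lens fiber cells and the spectrin-actin skeleton under the fiber membrane. They were chosen by name: *Bfsp1*, *Bfsp2*, *Vim*, *Nes*, *Tmod1*, *Sptbn1*, *Sptan1*, *Ank2* and *Add2*, 9 of the 55416 genes counted. All 9 passed the filter on low counts, as did 14903 genes in all. Their levels were compared between E16.5 lenses of 4 *Atf4* null and 5 wildtype mouse embryos, and each was also set against *Mip*, which encodes aquaporin 0, the main channel protein of the fiber membrane, as a reference for fiber content.

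Whole lenses were taken from littermates of crosses between mice heterozygous for the Atf4tm1Tow null allele, on a mixed C57Bl/6 and 129 background, and both sexes were used. Each library holds the RNA of the lens pair of 1 embryo, so a replicate is an embryo. The allele is null in every tissue of the embryo and not in the lens alone. The mice were not typed for the deletion in *Bfsp2* that 129 mice carry, and counts summed over a gene do not show which allele an embryo had. Among the 5 wildtype samples, titles and counts are labelled with different wildtype libraries, which leaves their replicate numbers uncertain but not their genotype. Values written with ± are means and SD over the 5 wildtype or the 4 *Atf4* null libraries.

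Lens fiber cells carry intermediate filaments of their own kind. Filensin (*Bfsp1*) and phakinin (*Bfsp2*) assemble with each other into the beaded filament, which replaces the vimentin network as fibers mature and is needed for clear, stiff fibers. Beneath the fiber membrane, tetramers of alpha and beta spectrin link short actin filaments into a lattice. Tropomodulin caps the pointed ends of that actin, adducin caps the barbed ends and recruits spectrin, and ankyrin ties the lattice to membrane proteins.

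Between 8409779 and 8906996 counts lay on genes in each wildtype library and between 7440807 and 8696699 in each *Atf4* null library. The members together took between 1.18% and 2.24% of the counts of a library. *Atf4* itself stood at 119.3 to 155.5 CPM (counts per 1000000 counts on genes, scaled by TMM factors) in the wildtype and at 0.582 to 10.6 CPM in the *Atf4* null libraries. Of 8 defining fiber genes, *Mip*, *Gja3*, *Cryba1* and *Crybb3* stood at 515.5 CPM or more in all 9 libraries, *Crygs*, *Dnase2b* and *Birc7* were lower, down to 3.49 CPM for *Birc7*, and the identifier of *Lim2* had no counts in any library. *Mip* was lowest in wildtype replicate 5 and *Atf4* null replicate 1, at 1823 and 1822 CPM. In wildtype replicate 5, 9 skeletal muscle genes summed to 9452 CPM and 7 mesenchyme genes to 13658 CPM, while in the other wildtype libraries they summed to at most 35.7 and 89.0 CPM. Fold changes of members that rest on this library are therefore also given without it. The fold change of *Mip* and the coefficients of variation are given with it only.

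*Mip* did not separate the genotypes. It stood at 1822, 2927, 2878 and 4343 CPM in *Atf4* null replicates 1 to 4 and at 3608, 3308, 3166, 3261 and 1823 CPM in wildtype replicates 1 to 5. The groups overlapped, but the only low wildtype library was replicate 5, which was also high in muscle and mesenchyme transcripts. The other wildtype libraries ran from 3166 to 3608 CPM. *Atf4* null replicate 4 lay above that range and the other *Atf4* null libraries lay below it. The fold change that follows includes wildtype replicate 5. The log2 fold change (*Atf4* null minus wildtype) was -0.02, with a 95% interval from -0.52 to 0.48 (edgeR's quasi-likelihood test, Benjamini-Hochberg adjusted p = 0.977 over all genes tested).

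**Figure D1:**
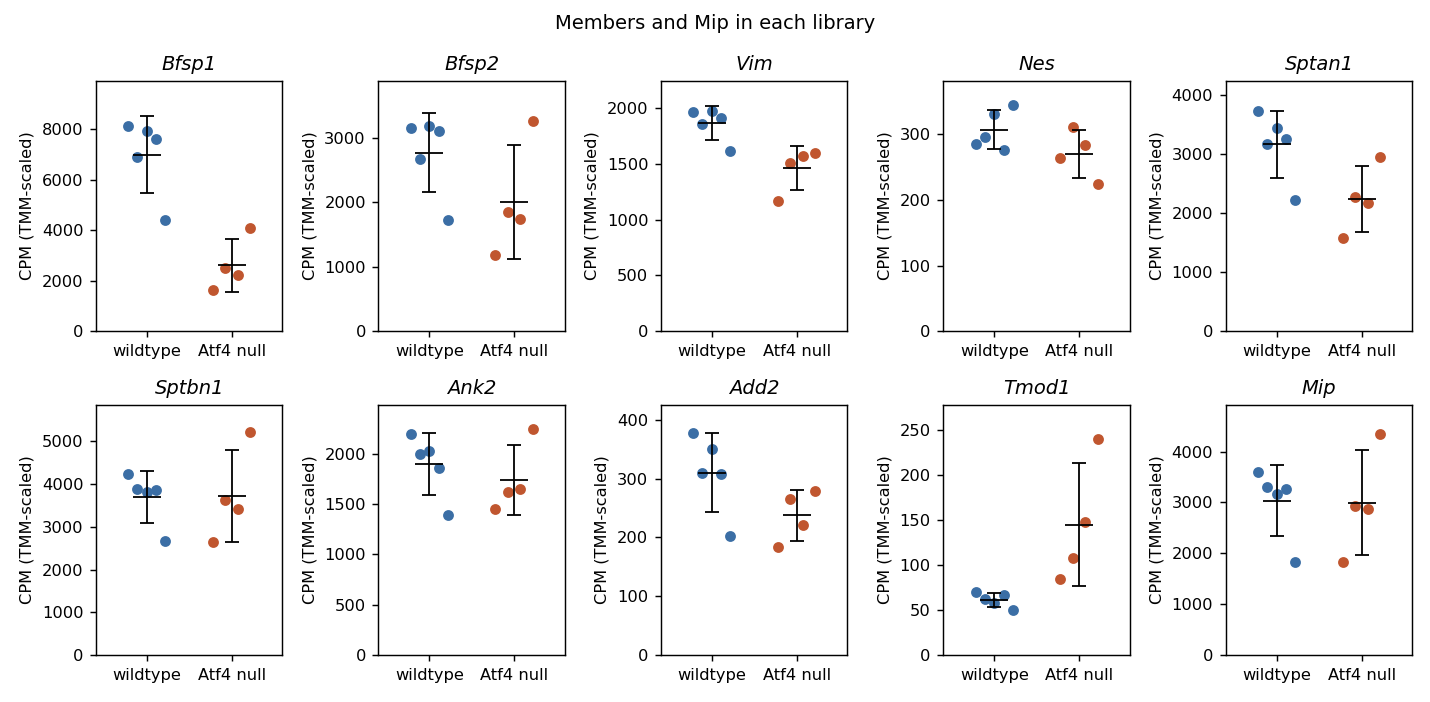
Level of each member and of *Mip* in CPM (TMM-scaled, linear axes from 0). Each point is a library, the long bar is the genotype mean and the whiskers are 1 SD (5 wildtype and 4 *Atf4* null libraries). For *Bfsp1* and *Vim* all *Atf4* null points lie below all wildtype points, for *Tmod1* all lie above, and in the other panels the genotypes overlap.

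Of the 9 members, *Bfsp1* fell and *Tmod1* rose in the *Atf4* null lens, and the other 7 did not pass the test. That is 2 of 9 called at an adjusted p below 0.05, where 5.9% of all genes tested were called, 3.67% lower and 2.23% higher. In all, 5 members had an unadjusted p below 0.05, as did 19.6% of all genes. The point estimate of the log2 fold change was below 0 for 7 members and above 0 for *Tmod1* and *Sptbn1*, and that of *Sptbn1* was below 0 without wildtype replicate 5, without *Atf4* null replicate 4 or with the replicate number as a block. The median over the members was -0.35, and over all genes tested it was 0.0007. With library size in place of TMM factors the median over all genes moved to 0.12 and 64.3% of the called genes were higher, against 37.8% with TMM factors. The same 2 members were called in that setting, where 1229 of 14903 genes were called. Without wildtype replicate 5, *Vim*, *Sptan1* and *Add2* were called lower as well, 5 of 9, where 8.33% of all genes were called. DESeq2 added *Vim* and *Sptan1*, 4 of 9, where it called 9.37% of all genes.

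Levels in CPM did not overlap between the genotypes for 3 members, 2 lower and 1 higher, against 10.2% of all genes (5.58% lower and 4.65% higher). Among 7 tested marker genes of fiber cells, *Crygs*, *Birc7* and *Dnase2b* were called lower, and the summed level of the list ran from 21705 to 41047 CPM in wildtype and from 15479 to 35939 CPM in *Atf4* null libraries. Without wildtype replicate 5 the lowest wildtype sum was 38296 CPM, above all *Atf4* null sums, and 5 of the 7 were called lower. The part of fiber content in the members called lower was not tested beyond the ratios to *Mip*. In whole lens RNA, fewer fiber cells and less of a transcript in each fiber cannot be told apart.

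Per length, the members span a wide range of levels. In FPKM, here CPM divided by the exon length in kilobases, wildtype lenses held 2925 ± 638 of *Bfsp1*, 1628 ± 363 of *Bfsp2* and 393 ± 31.4 of *Vim*. The spectrins *Sptan1* and *Sptbn1* followed at 231.4 ± 41.6 and 211 ± 34.3 FPKM, with ranges that overlapped between libraries although *Sptan1* was the higher of the pair in each of the 5. The levels of *Ank2* at 53.5 ± 8.65 and *Nes* at 47.8 ± 4.65 FPKM overlapped as well, and *Nes* was the higher in wildtype replicate 5. *Add2* at 28.9 ± 6.26 and *Tmod1* at 11.45 ± 1.46 FPKM were the lowest.

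In *Atf4* null lenses the beaded filament genes again led, with *Bfsp2* at 1178 ± 519 and *Bfsp1* at 1094 ± 442 FPKM. Their ranges overlapped between libraries, and *Bfsp2* was the higher in each of the 4, by a small margin. *Vim* stood at 308 ± 41.8, *Sptbn1* at 212.8 ± 61.6 and *Sptan1* at 164 ± 41.2 FPKM. By mean, *Ank2* at 49.1 ± 9.79, *Nes* at 42.1 ± 5.68, *Tmod1* at 27.1 ± 12.8 and *Add2* at 22.2 ± 4.05 FPKM closed the order. The mean of *Tmod1* now lay above that of *Add2*. Levels overlapped between libraries for *Ank2* and *Nes* and for *Tmod1* and *Add2*, and *Nes* was above *Ank2* in *Atf4* null replicates 1 and 2.

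The beaded filament pair came apart. In the *Atf4* null libraries *Bfsp1* (ENSMUSG00000027420, GRCm39 chr2:143668448-143705093, minus strand) stood at 1620, 2499, 2240 and 4100 CPM. In the wildtype libraries it stood at 8147, 6896, 7913, 7599 and 4397 CPM. The highest *Atf4* null library came close to the lowest wildtype library, replicate 5, and all other libraries lay far apart. This gave a log2 fold change of -1.42, with a standard error of 0.25 and a 95% interval from -1.95 to -0.89 (edgeR's quasi-likelihood test, Benjamini-Hochberg adjusted p = 0.00417).

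*Bfsp2* (ENSMUSG00000032556, GRCm39 chr9:103302120-103357619, minus strand), the partner of filensin, stood at 1179, 1846, 1740 and 3253 CPM in the *Atf4* null libraries. It stood at 3153, 2668, 3186, 3106 and 1731 CPM in the wildtype libraries. The highest value of all 9 was in an *Atf4* null lens and the groups overlapped. The log2 fold change was -0.47 with a 95% interval from -1.01 to 0.08 (edgeR's quasi-likelihood test, Benjamini-Hochberg adjusted p = 0.344). Without *Atf4* null replicate 4, the library with the most *Mip*, it was -0.80 (adjusted p = 0.0400, where 5.43% of all genes were called), and without *Atf4* null replicate 1, the library with the least, it was -0.27 (adjusted p = 0.587). Without wildtype replicate 5 it was -0.59 (adjusted p = 0.118). A lncRNA gene on the opposite strand, *5830418P13Rik*, overlaps 12.9% of the exon bases of *Bfsp2* and averaged 3.10 CPM in wildtype and 1.95 CPM in *Atf4* null lenses.

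Dividing by *Mip* lowered the spread of *Bfsp1* over all libraries of each genotype. The ratio of *Bfsp1* to *Mip* counts was 0.889, 0.854, 0.779 and 0.944 in the *Atf4* null libraries and 2.26, 2.09, 2.50, 2.33 and 2.41 in the wildtype libraries. The coefficient of variation of *Bfsp1* dropped from 40.4% in CPM to 8.003% in this ratio among *Atf4* null lenses, and from 21.8% to 6.82% among wildtype lenses. In CPM wildtype replicate 5 stood at 4397, where the others ran from 6896 to 8147. The wildtype drop was not computed without that library. In the ratio to *Mip* the groups stood far apart, with means of 2.32 ± 0.158 in wildtype and 0.866 ± 0.0693 in *Atf4* null lenses. The log2 difference was -1.42 with a standard error of 0.0735 (exact two-sided permutation test, p = 0.0159, the smallest that 4 against 5 libraries can give).

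The ratio of *Bfsp2* to *Mip* counts was 0.647, 0.631, 0.605 and 0.749 in the *Atf4* null libraries and 0.874, 0.807, 1.01, 0.952 and 0.950 in the wildtype libraries. All *Atf4* null lenses lay below all wildtype lenses on this scale, which they did not in CPM. The log2 difference was -0.48 with a standard error of 0.0874 (exact two-sided permutation test, p = 0.0159). In a fit over all genes with the *Mip* count as the scale, the log2 fold change of *Bfsp2* was again -0.48, and the adjusted p was 0.124 (edgeR's quasi-likelihood test, Benjamini-Hochberg). The same fit gave -1.42 for *Bfsp1*, with a 95% interval from -1.65 to -1.19 and an adjusted p of 1.26e-05.

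The ratio of *Bfsp1* to *Bfsp2* varied little within a genotype. It was 1.37, 1.35, 1.29 and 1.26 in the *Atf4* null libraries and 2.58, 2.58, 2.48, 2.45 and 2.54 in the wildtype libraries, in counts. Wildtype replicate 5 and *Atf4* null replicate 1, which stood apart in *Mip*, were not apart from their groups here. The log2 difference was -0.94 with a standard error of 0.0333 (exact two-sided permutation test, p = 0.0159), and it stayed between -0.96 and -0.92 when any 1 library was left out. Corrected for exon length, filensin transcripts outnumbered phakinin transcripts 1.80 ± 0.0436 to 1 in wildtype lenses, and the ratio was 0.939 ± 0.0381 in *Atf4* null lenses.

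**Figure D2:**
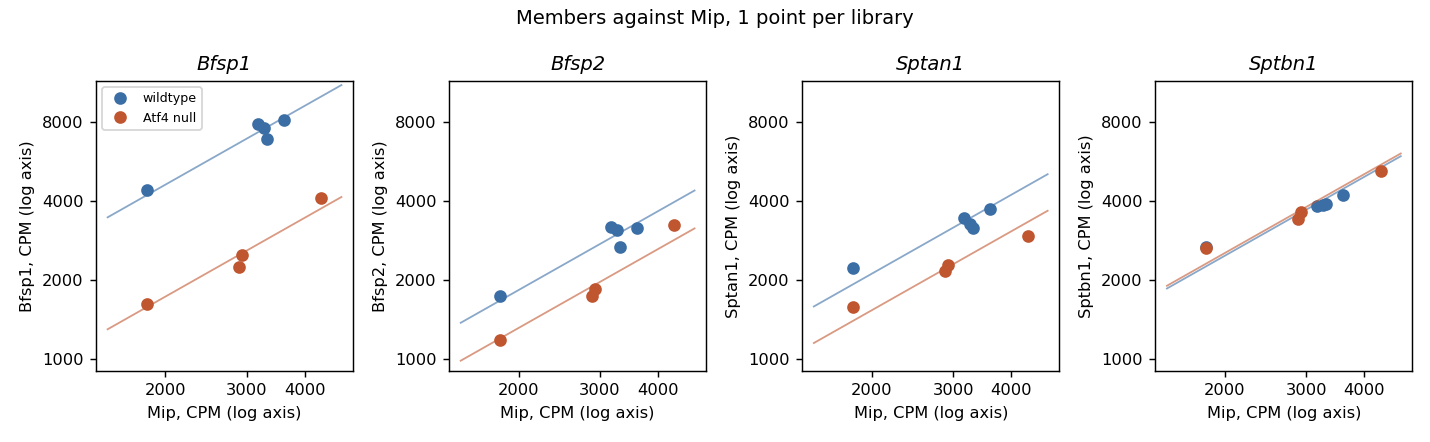
*Bfsp1*, *Bfsp2*, *Sptan1* and *Sptbn1* against *Mip* in each library, both in CPM on log axes, with a line per genotype at its mean log2 ratio to *Mip*. The genotype lines are 1.42 log2 units apart for *Bfsp1*, 0.48 for *Bfsp2* and 0.46 for *Sptan1*, and they nearly coincide for *Sptbn1*.

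The 250 bases before the start of the *Bfsp1* transcript are shown because *Bfsp1* fell the most of the members. They were read from GRCm39 at chr2:143705094-143705343, minus strand, and are written 5′ to 3′ on the strand of the gene. Capitals mark a match to TGCTGA, a core of the sites bound by Maf factors, on either strand.
Bfsp1: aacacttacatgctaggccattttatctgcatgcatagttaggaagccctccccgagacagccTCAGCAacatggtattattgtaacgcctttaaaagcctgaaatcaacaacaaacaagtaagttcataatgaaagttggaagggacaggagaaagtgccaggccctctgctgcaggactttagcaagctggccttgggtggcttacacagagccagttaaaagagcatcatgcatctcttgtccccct
*Bfsp1* held 1 such match, written TCAGCA on the strand shown, 187 bases before the start. Of the 8 member windows searched, that of *Nes* also had a match, and among the 21757 windows of protein-coding genes 14.8% had one. The letters TGATGNAA, the composite element of ATF4 and C/EBP, were in 3.39% of all windows and in 0 of the 8 member windows, searched on both strands. A match is only a match of letters, and its absence says only that these letters are not in this window.

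Vimentin and nestin are the filament proteins that fiber cells share with other cells. *Vim* (ENSMUSG00000026728, GRCm39 chr2:13578738-13587639, plus strand) stood at 1172, 1507, 1575 and 1599 CPM in the *Atf4* null libraries and at 1966, 1863, 1977, 1915 and 1613 CPM in the wildtype libraries. All *Atf4* null libraries lay below all wildtype libraries, but the gap between the nearest, 1599 and 1613 CPM, was small. On the log2 scale the fold change was -0.35 with a 95% interval from -0.61 to -0.09 (edgeR's quasi-likelihood test, Benjamini-Hochberg adjusted p = 0.120). Without wildtype replicate 5 it was -0.39 (adjusted p = 0.0466), and DESeq2 gave an adjusted p of 0.0397.

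*Nes* (ENSMUSG00000004891, GRCm39 chr3:87878385-87887758, plus strand) stood at 263.1, 310.5, 283.3 and 223.9 CPM in the *Atf4* null libraries and at 284.4, 296.4, 330.9, 276.6 and 344.9 CPM in the wildtype libraries. The groups overlapped over most of their range. Its log2 fold change was -0.18 with a 95% interval from -0.45 to 0.08 (edgeR's quasi-likelihood test, Benjamini-Hochberg adjusted p = 0.470). It was -0.11 without *Atf4* null replicate 4 and -0.13 without wildtype replicate 5.

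For these 2 genes division by *Mip* widened the spread, where it had narrowed it for the beaded filament genes. Among wildtype lenses the coefficient of variation rose from 7.98% in CPM to 21.8% in the ratio to *Mip* for *Vim*, and from 9.73% to 41.7% for *Nes*. The ratio in wildtype replicate 5 was 0.885 for *Vim*, where the other wildtype libraries ran from 0.545 to 0.625. For *Nes* it was 0.189, where the others ran from 0.0788 to 0.1045. The spread was not computed without that library. The ratio to *Mip* overlapped between the genotypes for both genes. Its log2 difference was -0.31 for *Vim* (exact two-sided permutation test, p = 0.238) and -0.14 for *Nes* (p = 0.730 by the same test), and the sign for *Nes* turned without wildtype replicate 5 or without *Atf4* null replicate 4. For *Vim* the difference was -0.19 without wildtype replicate 5 and -0.16 without *Atf4* null replicate 4.

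Per length, the 4 filament genes stood in other proportions to each other. *Bfsp1* made up 58.4 ± 1.12% of their summed FPKM in wildtype and 41.4 ± 1.21% in *Atf4* null lenses. The mean share in wildtype and in *Atf4* null lenses was 32.5% and 44.2% for *Bfsp2*, 8.09% and 12.5% for *Vim*, and 1.02% and 1.79% for *Nes*. *Bfsp1* and *Bfsp2* together made up 90.9 ± 1.71% in wildtype and 85.7 ± 3.54% in *Atf4* null lenses, with overlap. The difference of -5.23 percentage points had p = 0.0317 by an exact two-sided permutation test, and p reached 0.0714 when single libraries were left out.

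**Figure D3:**
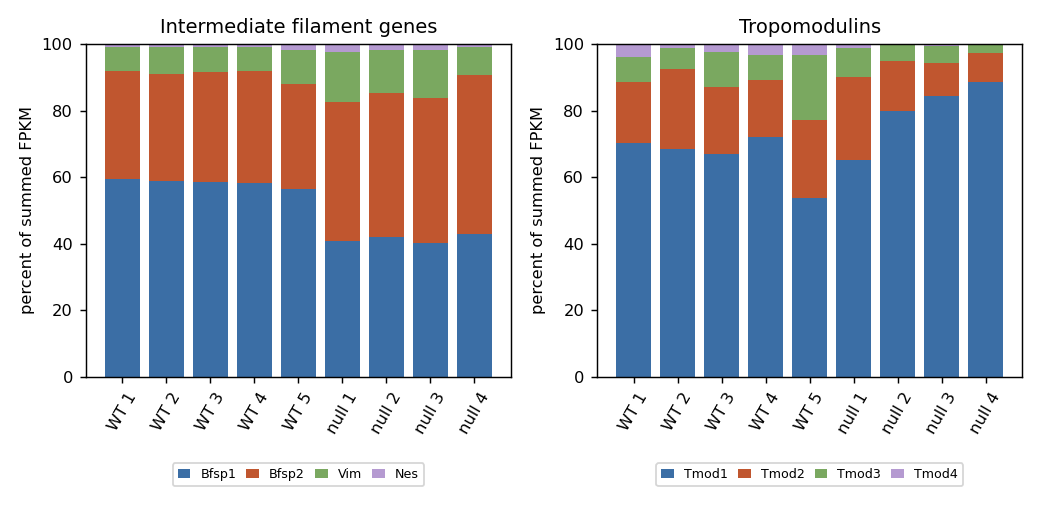
Composition of 2 gene families in each library (WT, wildtype; null, *Atf4* null), as percent of the family's summed FPKM. *Bfsp1* takes 56.6% to 59.6% of the filament genes in wildtype and 40.1% to 42.9% in *Atf4* null lenses. *Tmod1* takes 53.6% to 72.1% of the tropomodulins in wildtype and 65.2% to 88.4% in *Atf4* null lenses.

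The alpha and beta chains of spectrin also differed in their relation to *Mip*. *Sptan1* (ENSMUSG00000057738, GRCm39 chr2:29855328-29921463, plus strand), the alpha chain of non-erythroid spectrin, stood at 1577, 2279, 2163 and 2950 CPM in the *Atf4* null libraries and at 3737, 3165, 3438, 3262 and 2224 CPM in the wildtype libraries. Only wildtype replicate 5 reached into the *Atf4* null range. The log2 fold change was -0.50 with a 95% interval from -0.89 to -0.11 (edgeR's quasi-likelihood test, Benjamini-Hochberg adjusted p = 0.139). Without wildtype replicate 5 it was -0.59 (adjusted p = 0.0238), without *Atf4* null replicate 4 it was -0.66 (adjusted p = 0.0426), and DESeq2 gave an adjusted p of 0.0491.

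*Sptbn1* (ENSMUSG00000020315, GRCm39 chr11:30049394-30218191, minus strand), a beta chain that pairs with it, stood at 2653, 3630, 3417 and 5221 CPM in the *Atf4* null libraries and at 4233, 3897, 3828, 3870 and 2663 CPM in the wildtype libraries. The groups overlapped throughout. Its log2 fold change was 0.01 with a 95% interval from -0.38 to 0.41 (edgeR's quasi-likelihood test, Benjamini-Hochberg adjusted p = 0.981).

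Against *Mip* the chains behaved differently. The ratio of *Sptan1* to *Mip* counts was 0.866, 0.779, 0.752 and 0.679 in the *Atf4* null libraries and 1.04, 0.957, 1.09, 1.00 and 1.22 in the wildtype libraries, with no overlap. Its log2 difference was -0.46 with a standard error of 0.0939 (exact two-sided permutation test, p = 0.0159), and the fit over all genes gave an adjusted p of 0.142 (edgeR, Benjamini-Hochberg). The ratio of *Sptbn1* to *Mip* averaged 1.24 ± 0.123 in wildtype and 1.27 ± 0.125 in *Atf4* null lenses. Its log2 difference of 0.03 was smaller than the spread, and the interval in the fit over all genes ran from -0.22 to 0.29.

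The ratio of *Sptan1* to *Sptbn1* needs no scaling between libraries. It was 0.595, 0.628, 0.633 and 0.565 in the *Atf4* null libraries and 0.883, 0.812, 0.898, 0.843 and 0.835 in the wildtype libraries, in counts. The groups did not overlap and each spanned a narrow range. The log2 difference was -0.50 with a standard error of 0.0466 (exact two-sided permutation test, p = 0.0159), and it stayed between -0.52 and -0.47 with any 1 library left out. Per length the ratio was 1.09 ± 0.0452 in wildtype and 0.775 ± 0.0407 in *Atf4* null lenses.

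*Sptb*, the erythroid beta chain, averaged 1236 ± 261 CPM in wildtype and 825 ± 236 CPM in *Atf4* null lenses. The groups overlapped and the gene did not pass the test (log2 fold change -0.58, edgeR's quasi-likelihood test, Benjamini-Hochberg adjusted p = 0.126). *Sptbn4* and *Sptbn5*, at means below 10 CPM in both genotypes, were not called either (adjusted p = 0.351 and 0.962).

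Erythroid transcripts were also lower in the *Atf4* null libraries than in most wildtype libraries. The summed level of 8 erythroid genes ran from 231.0 to 742.6 CPM in wildtype and from 183.1 to 256.1 CPM in *Atf4* null libraries, and 1 of the 7 tested, *Hba-a1*, was called lower. The part of blood cells in the levels of *Sptb* and of *Ank1*, which red cells also express, was not tested.

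Ankyrin and adducin, which join spectrin to the membrane and to actin, showed no call among the members. *Ank2* (ENSMUSG00000032826, GRCm39 chr3:126715261-127292999, minus strand), ankyrin B, stood at 1451, 1624, 1653 and 2248 CPM in the *Atf4* null libraries and at 2205, 2002, 2030, 1863 and 1394 CPM in the wildtype libraries. Both the highest and the second lowest value were in *Atf4* null lenses, so the groups overlapped throughout. On the log2 scale the fold change was -0.12 with a 95% interval from -0.46 to 0.22 (edgeR's quasi-likelihood test, Benjamini-Hochberg adjusted p = 0.746). With single libraries left out it ran from -0.27 (without *Atf4* null replicate 4) to -0.037 (without *Atf4* null replicate 1), and without wildtype replicate 5 it was -0.21. Its ratio to *Mip* differed by -0.08 on the log2 scale (exact two-sided permutation test, p = 0.587), a sign that turned with *Gja3* in place of *Mip*, and it ran from -0.21 (without *Atf4* null replicate 1) to -0.0051 (without *Atf4* null replicate 4).

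*Add2* (ENSMUSG00000030000, GRCm39 chr6:86005550-86101707, plus strand), beta adducin, stood at 183.8, 265.3, 220.7 and 278.8 CPM in the *Atf4* null libraries and at 378.1, 310.0, 350.6, 307.5 and 202.2 CPM in the wildtype libraries. Wildtype replicate 5 alone lay within the *Atf4* null range. The log2 fold change was -0.39 (edgeR's quasi-likelihood test, Benjamini-Hochberg adjusted p = 0.251), and without wildtype replicate 5 it was -0.50 (adjusted p = 0.0357). The ratio to *Mip* differed by -0.33 on the log2 scale (exact two-sided permutation test, p = 0.0635), without *Atf4* null replicate 1 by -0.43 (p = 0.0357 by the same test) and without *Atf4* null replicate 4 by -0.21 (p = 0.143).

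Of their paralogs, *Ank1*, the ankyrin of red cells, fell from 26.5 ± 5.80 CPM to 6.02 ± 4.46 CPM, a log2 fold change of -2.14 (edgeR's quasi-likelihood test, Benjamini-Hochberg adjusted p = 0.0118). *Add1*, alpha adducin, fell from 273.5 ± 22.8 to 200.8 ± 14.8 CPM, a log2 fold change of -0.45 (adjusted p = 0.0265). *Ank3*, ankyrin G, and *Add3*, gamma adducin, had log2 fold changes of -0.32 (adjusted p = 0.284) and -0.50 (adjusted p = 0.0791). Relative to *Mip* the log2 fold changes were -2.13 for *Ank1* and -0.36 for *Add1*, and neither was called (adjusted p = 0.146 and 0.877).

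*Tmod1* (ENSMUSG00000028328, GRCm39 chr4:46038541-46116036, plus strand), the tropomodulin that caps pointed ends of actin in fibers, was the member that rose. It stood at 84.1, 107.9, 147.3 and 239.6 CPM in the *Atf4* null libraries and at 70.2, 62.2, 57.6, 66.1 and 50.1 CPM in the wildtype libraries. All *Atf4* null lenses lay above all wildtype lenses, and the *Atf4* null lenses differed widely among themselves. This gave a log2 fold change of 1.24, with a standard error of 0.24 and a 95% interval from 0.72 to 1.76 (edgeR's quasi-likelihood test, Benjamini-Hochberg adjusted p = 0.00791). Per length its levels of 15.7 to 44.8 FPKM in *Atf4* null lenses overlapped those of *Add2*, at 17.2 to 26.1 FPKM, while in wildtype lenses *Tmod1* stayed at 13.1 FPKM or less and *Add2* at 18.9 FPKM or more.

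Relative to *Mip* the *Atf4* null values drew together. The ratio of *Tmod1* to *Mip* counts was 0.0462, 0.0369, 0.0512 and 0.0552 in the *Atf4* null libraries and 0.0195, 0.0188, 0.0182, 0.0203 and 0.0275 in the wildtype libraries. The highest wildtype ratio was that of replicate 5, and it stayed below the lowest *Atf4* null ratio. The log2 difference was 1.19 with a standard error of 0.166 (exact two-sided permutation test, p = 0.0159). The fit over all genes gave an adjusted p of 0.0261 (edgeR, Benjamini-Hochberg), which rose above 0.05 when *Atf4* null replicate 2, 3 or 4 or wildtype replicate 1, 2, 3 or 4 was left out, to 0.141 at most.

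Within its family, *Tmod1* made up 66.3 ± 7.34% of the summed FPKM of 4 tropomodulins in wildtype and 79.4 ± 10.1% in *Atf4* null lenses. These shares overlapped, and the difference of 13.2 percentage points had p = 0.0794 (exact two-sided permutation test). Without *Atf4* null replicate 1 the difference was 17.9 points (exact two-sided permutation test, p = 0.0357). *Tmod2*, the neuronal form, and *Tmod3*, the widespread form, were not called, with log2 fold changes of 0.31 (edgeR's quasi-likelihood test, Benjamini-Hochberg adjusted p = 0.412) and -0.18 (adjusted p = 0.837).

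Retinal and neuronal transcripts were also higher in the *Atf4* null libraries. The summed level of 9 such genes ran from 181.0 to 291.4 CPM in wildtype and from 315.8 to 876.3 CPM in *Atf4* null libraries, and 5 of the 9 were called higher. In *Atf4* null replicates 1 to 4 the sums were 876.3, 518.0, 594.1 and 315.8 CPM. *Tmod1* stood at 84.1, 107.9, 147.3 and 239.6 CPM in the same libraries. *Tstd2*, on the strand opposite to *Tmod1*, overlaps 24.4% of its exon bases. It averaged 39.99 ± 6.86 CPM in wildtype and 50.6 ± 7.58 CPM in *Atf4* null lenses and was not called (log2 fold change 0.34, edgeR's quasi-likelihood test, Benjamini-Hochberg adjusted p = 0.284). The strand setting of the counting is not given in the sources used here, and the part of retinal RNA or of antisense reads in the rise of *Tmod1* was not tested.

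The 250 bases before the canonical start of *Tmod1* (GRCm39 chr4:46038662-46038911, plus strand) are shown because it alone among the members rose. They lie inside the span that GENCODE gives the gene, which begins upstream of them. Capitals mark a match to GAANNTTC, a pair of facing units of the heat shock element.
Tmod1: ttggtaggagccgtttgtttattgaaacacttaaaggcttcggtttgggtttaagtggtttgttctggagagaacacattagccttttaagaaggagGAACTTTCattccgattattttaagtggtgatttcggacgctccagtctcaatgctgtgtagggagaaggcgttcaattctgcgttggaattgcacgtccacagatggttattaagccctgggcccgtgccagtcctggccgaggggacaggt
The match, GAACTTTC, lies 153 bases before the start. No other member window searched had one, and 6.33% of the 21757 windows did. None of the 3 motifs searched overlapped another in the windows printed here.

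**Figure D4:**
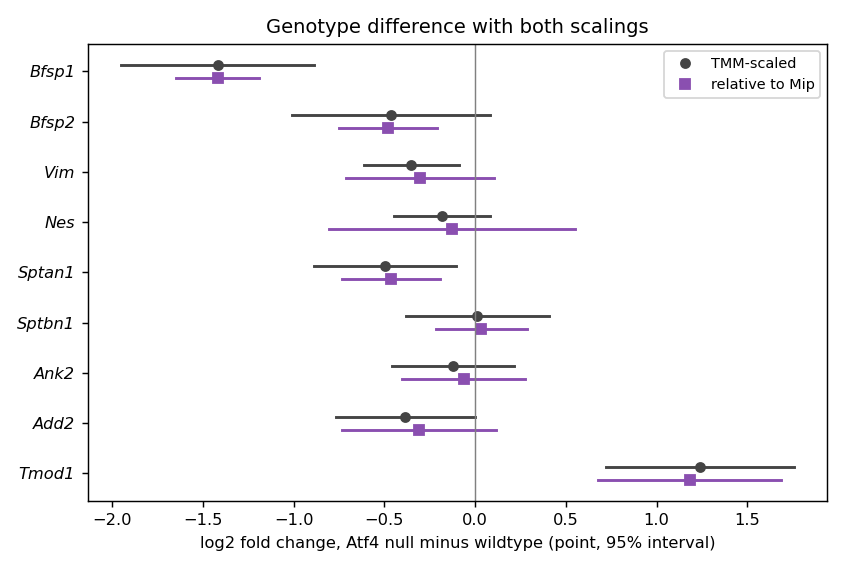
Log2 fold change of each member (*Atf4* null minus wildtype, points) with its 95% interval (lines), TMM-scaled and relative to *Mip*. The intervals of *Bfsp1* lie below 0 and those of *Tmod1* above 0 with both scalings, those of *Sptbn1* and *Ank2* span 0 with both, and the interval of *Bfsp2* spans 0 only when TMM-scaled.

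Set against *Mip*, 2 of the 9 members were called in the fit over all genes, again *Bfsp1* lower and *Tmod1* higher, where 0.926% of all genes were called (0.752% lower and 0.174% higher). Without wildtype replicate 5 the same 2 were called, where 2.3% of all genes were, and without *Atf4* null replicate 4 *Bfsp1* alone, where 0.861% were. Ratios to *Mip* did not overlap between the genotypes for 4 members, against 4.97% of all genes (3.29% lower and 1.68% higher): *Bfsp1*, *Bfsp2* and *Sptan1* were lower and *Tmod1* was higher. The unadjusted p was below 0.05 for these 4, as it was for 8.22% of all genes. The median log2 fold change relative to *Mip* was -0.31 over the members and 0.07 over all genes. In all, 14 ratios and shares were tested one by one, and their permutation p-values are not adjusted for that number.

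The members differed in how they varied with *Mip* between lenses of a genotype. Division by *Mip* lowered the coefficient of variation in both genotypes for *Bfsp1*, *Bfsp2*, *Sptbn1* and *Sptan1*. For *Sptbn1* it went from 16.3% to 9.92% in wildtype and from 28.9% to 9.83% in *Atf4* null lenses. It raised the variation in both genotypes for *Vim* and *Nes*. For *Tmod1* it lowered the variation among *Atf4* null lenses, from 47.3% to 16.7%, and raised it among wildtype lenses, from 12.7% to 18.2%. For *Ank2* and *Add2* it was lower among wildtype and higher among *Atf4* null lenses. The wildtype values include replicate 5, with *Mip* at 1823 CPM, where the others ran from 3166 to 3608 CPM. The coefficients of variation were not computed without that library, so the wildtype changes cannot be separated from it.

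*Gja3*, the gene of the fiber connexin 46, served as a second reference. Its ratio to *Mip* differed by -0.12 on the log2 scale between the genotypes, with overlap (exact two-sided permutation test, p = 0.0317, added after the values had been seen). That p rose above 0.05, to between 0.0571 and 0.0714, when any 1 library other than *Atf4* null replicate 4 or wildtype replicate 1 was left out. With *Gja3* in place of *Mip*, *Bfsp1* and *Tmod1* were again the called members, where 100 of 14902 genes were called.

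The genes nearest to the members in pattern over the 9 libraries were sought. Likeness was the root mean square difference of log2 CPM, each gene centred on its wildtype mean, among 10856 genes with a mean of at least 50 counts. For *Bfsp1* the nearest were the γ-crystallin genes *Crygb* (0.0551) and *Crygf* (0.0859) and the glycogen phosphorylase gene *Pygm* (0.155). *Crygb* fell from 3539 ± 739 CPM to 1333 ± 552 CPM. For *Bfsp2* the nearest were *Cryba1* (0.0879), *Cryge* (0.0882) and the lens heat shock factor gene *Hsf4* (0.100). For *Tmod1* the nearest were *Kcnd3* (0.235), *Cerk* (0.241) and *Ccng1* (0.250), at a greater distance. The distances are descriptions over 9 libraries, and all genes of a library share its depth and cell content. Crystallin γ genes share much sequence, so their counts are uncertain, and how reads that fit more than 1 gene were counted is not given in the sources used here.

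A list of 67 other genes of the membrane skeleton, intermediate filaments and their partners, chosen with earlier results of these data known, set the members in context. Of these, 61 were tested, 7 were called lower, 0 were called higher and 54 were not called. The share called, 11.5%, compares with 5.9% of all genes, and the median log2 fold change was -0.14. By group, 1 of 2 ankyrins and 1 of 2 adducins were called lower, as given above. Also called lower were 1 of 9 genes of the protein 4.1 family and its partners, 2 of 7 cytolinkers, 1 of 7 ankyrin-binding membrane proteins and 1 of 8 chaperones and proteases of filaments. No call was made among 3 tropomodulins and leiomodins, 4 tropomyosins, 3 genes of ezrin, radixin and moesin, 9 other intermediate filament genes and 4 genes of actin and fiber shape. In these last groups the unadjusted p of edgeR's test was below 0.05 for *Tpm2*, which was lower, and for *Rdx*, *Ina* and *Nefm*, which were higher. Over the whole list 15 genes had such a p with a lower and 5 with a higher level in *Atf4* null lenses. Of all genes tested, 19.6% had such a p in either direction. Without wildtype replicate 5, where 8.33% of all genes were called, 12 genes of the list were called lower and 5 higher (*Des*, *Nfasc*, *Lmna*, *Tpm1* and *Ahnak*). In that setting 7 mesenchyme genes summed to 38.3 to 89.0 CPM in wildtype lenses and to between 200.6 and 533.2 CPM in *Atf4* null lenses, and 5 of the 6 tested were called higher. The part of mesenchyme RNA in these higher levels was not tested. DESeq2 called 12 lower and 1 higher, *Nfasc*.

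Outside the paralog families, *Capn3*, the muscle and lens calpain, a protease, had the lowest log2 fold change among the called genes of the list. It stood at 93.6 ± 35.2 CPM in wildtype and 26.3 ± 7.91 CPM in *Atf4* null lenses, and its log2 fold change was -1.83 (edgeR's quasi-likelihood test, Benjamini-Hochberg adjusted p = 0.00325). *Prx*, which encodes periaxin, a scaffold protein of fiber membranes, fell by 0.96 on the log2 scale (adjusted p = 0.0107), and *Dst*, a linker of filaments to the cytoskeleton and membrane, by 0.73 (adjusted p = 0.00837). *Cdh2*, N-cadherin, fell by 0.72 (adjusted p = 0.0179), and *Epb41l2*, a protein 4.1 paralog, by 0.51 (adjusted p = 0.0212). *Prx* and *Cdh2* overlapped between the genotypes, while the others did not.

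**Figure D5:**
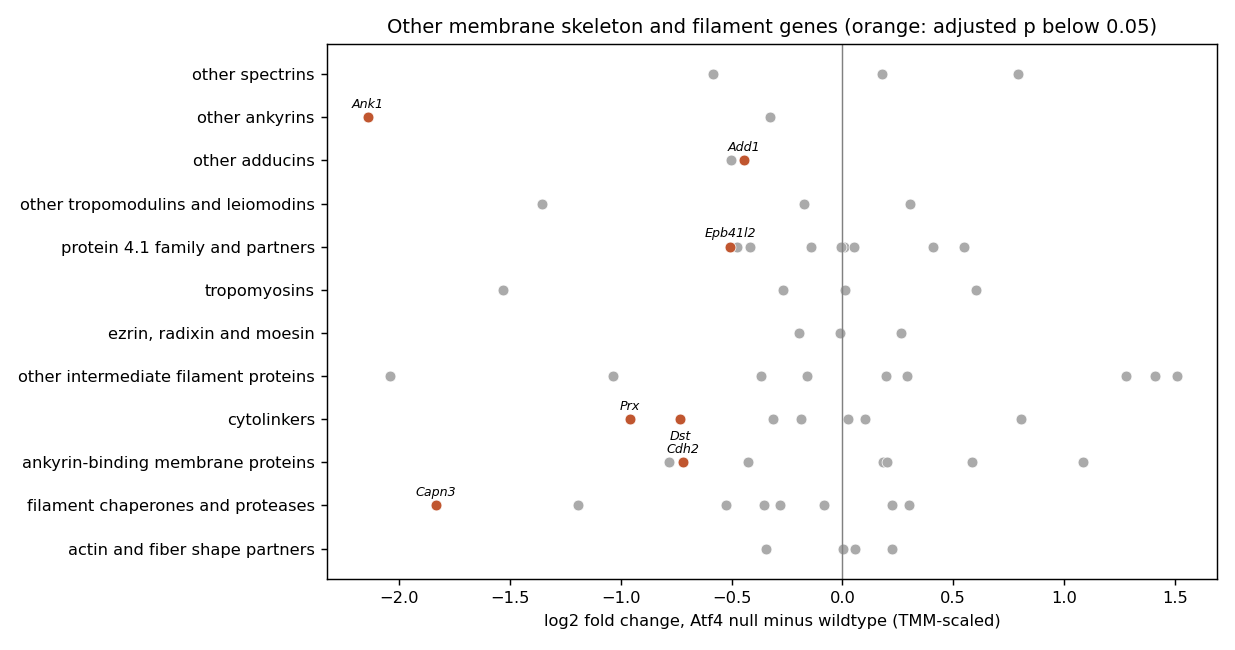
Log2 fold change (*Atf4* null minus wildtype, TMM-scaled) of the 61 tested genes of the list, by group, 1 point per gene. The 7 genes with an adjusted p below 0.05, in orange with their names, all lie below 0, and grey points, not called, lie on both sides.

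Relative to *Mip*, 2 of the 61 were called lower, namely *Capn3* and *Cryaa*, the last of which encodes αA-crystallin, a chaperone that binds beaded filaments. *Cryaa* had a log2 fold change of -0.34 relative to *Mip* (edgeR's quasi-likelihood test, Benjamini-Hochberg adjusted p = 0.00498) and of -0.35 when TMM-scaled (adjusted p = 0.432). *Actb* and *Actg1*, the genes of cytoplasmic actin, had TMM-scaled log2 fold changes of 0.00 and 0.06.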

How the data were processed

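Total RNA of the lens pairs of 4 *Atf4* null and 5 wildtype embryos was sequenced. The deposited files hold a whole count for each gene, which the authors made with Trim Galore, removal of ribosomal reads with HISAT2, alignment to GRCm39 and HTSeq. The 5 summary entries of each file, which name no gene, held 44.6% to 47.7% of its entries and were left out. GENCODE vM39 gave symbols, positions and exon lengths, and 667 identifiers with 0.0344% of the counts had no match. The labels and the methods name different RNA extraction kits.

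Counts were filtered with filterByExpr, scaled by TMM factors and tested with the quasi-likelihood test of edgeR 4.0.16 in R 4.3.3, without covariates, with Benjamini-Hochberg adjustment over the 14903 genes tested and a threshold of 0.05. The fit relative to *Mip* used the *Mip* count of each library as its offset. FPKM divide TMM-scaled CPM by the summed exon length in kilobases. Ratios and shares were compared with exact two-sided permutation tests over all 126 ways to assign the genotypes (scipy 1.17.1, Python 3.11.15). The procedure was tested on simulated data. All 36 pairs of libraries differed by more than sampling noise, with a chi-square per degree of freedom of at least 7.93.

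The members and lists were chosen with earlier results of these data known. Genes named are the members, *Mip*, *Gja3*, *Lim2*, *Atf4*, paralogs of the members, called genes of the list of 67, and the 3 genes nearest in pattern to *Bfsp1*, *Bfsp2* and *Tmod1*. The list held 3 further genes, and 2 marker genes, 1 promoter window and the share of *Sptbn1* among beta spectrins were also planned, all of which are not reported here. Others named, among them marker genes, *Tstd2* and genes without a call, were chosen after their values were seen. Alternatives were DESeq2 1.42.0, exactTest, library size, TMM factors without crystallin genes, no filter, a minimum of 10 counts per library, a robust fit, the replicate number as a block, *Gja3* as reference, shares of counts without length, and each library left out. Promoter windows of 250 bases were read from GRCm39.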

Additional observations from a re-analysis of the deposited data

Results flagged for a closer look

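In 8 of the quantities examined, wildtype replicate 5 lay far from the other 4 wildtype libraries, by a rule under which chance alone picks out about 1 in 20 groups. Among levels, *Sptbn1* stood at 2663 CPM, where the others ran from 3828 to 4233 CPM, and *Mip* stood at 1823 CPM, where the others ran from 3166 to 3608 CPM. Ratios of counts to *Mip* were high in this library for 4 members. For *Vim* the ratio was 0.885, against 0.545 to 0.625. For *Nes* it was 0.189, against 0.0788 to 0.104. For *Tmod1* it was 0.0275, against 0.0182 to 0.0203, and for *Sptbn1* it was 1.46, against 1.17 to 1.21. The share of *Tmod1* among tropomodulins was 53.6%, against 67.0% to 72.1% in the others. The share of *Bfsp1* and *Bfsp2* among the filament genes was 87.9%, against 91.04% to 91.99%. The ratios of *Bfsp1* and of *Bfsp2* to *Mip* in this library were not picked out by the rule. Its muscle and mesenchyme transcripts are given in the report, and their part in these values was not tested.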

How the results depend on the processing

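*Bfsp1* was lower and *Tmod1* higher, both called, in all 18 alternatives of the TMM-scaled fit, with log2 fold changes from -1.72 to -1.24 and from 0.88 to 1.44. DESeq2 called 1397 genes, 4 members and 13 genes of the pathway list, and with no filter on low counts 12 pathway genes were called. With single libraries left out, between 527 and 1207 genes were called, between 2 and 5 members and between 4 (without *Atf4* null replicate 2 or wildtype replicate 3) and 17 pathway genes (without wildtype replicate 5), and without both wildtype replicate 5 and *Atf4* null replicate 1, a choice made after seeing the data, 1339, 5 and 16. The lowest gene counts, between 527 and 570, came without *Atf4* null replicates 2 and 3 and wildtype replicates 3 and 2, and the highest without wildtype replicate 5. The log2 fold change of *Sptbn1* ran from -0.20 to 0.15 and was below 0 without *Atf4* null replicate 4 or wildtype replicate 5 (-0.078). Relative to *Mip*, leaving out 1 library gave 66 (without *Atf4* null replicate 2) to 334 genes (without wildtype replicate 5) and 1 to 2 members. There the log2 fold change ran from -0.36 to 0.16 for *Nes* (0.089 without *Atf4* null replicate 4), from -0.037 to 0.099 for *Sptbn1*, and from -0.22 to 0.0086 for *Ank2* (0.0073 without *Atf4* null replicate 4). With *Gja3* in place of *Mip* it was 0.0044 for *Nes* and 0.059 for *Ank2*, whose ratio differed by 0.045. Log2 differences of ratios to *Mip* ran over single libraries left out from -0.35 to 0.15 for *Nes* (0.078 without wildtype replicate 5), from -0.032 to 0.094 for *Sptbn1*, from -0.43 to -0.21 for *Add2* and from -0.15 to -0.082 for *Gja3*. The *Tmod1* share ran from 9.98 to 17.9 points and the beaded filament share from -6.92 to -4.23 points. In counts without division by exon length, with all libraries, the differences of these shares were 16.4 and -10.1 points. The cause of these changes was not tested. The replicate numbers did not pair the samples: same-numbered deviations correlated at -0.131 to 0.00802, and no *Atf4* null library was nearest to its own number. With the replicate number as a block, 852 genes, 3 members (*Sptan1* added) and 13 pathway genes were called, 249 genes relative to *Mip*, and the log2 fold change was -0.13 for *Sptbn1* and, relative to *Mip*, 0.078 for *Nes*. *Lim2* had no counts, so neither it nor a mean with it could serve as reference. The mean of *Mip* and *Gja3*, chosen after seeing the data, called 130 genes.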

Other observations

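Markers of the other cells of the eye were measured beside the members. Of 7 lens epithelium genes, 4 were called lower (*Foxe3*, *Cdh1*, *Gja1* and *Pdgfra*), and their summed level ran from 1661 to 1988 CPM in wildtype and from 842.4 to 1600 CPM in *Atf4* null libraries. Of 8 endothelial genes, *Egfl7* was called lower, with sums of 315.7 to 568.3 CPM and 156.9 to 352.9 CPM, a call that was lost without wildtype replicate 5. With all 9 libraries no call was made by edgeR's test among 7 macrophage genes (91.2 to 105.2 CPM in wildtype, 91.7 to 119.0 CPM in *Atf4* null libraries), 7 tested muscle genes (27.2 to 120.8 CPM in *Atf4* null libraries), 7 mesenchyme genes (200.6 to 533.2 CPM in *Atf4* null libraries) or 4 tested pigment cell genes (20.2 to 141.5 CPM in wildtype, 43.1 to 109.4 CPM in *Atf4* null libraries). Wildtype replicate 5, with sums of 9452, 13658 and 141.5 CPM, was the highest of all libraries for muscle, mesenchyme and pigment cell genes. The other wildtype libraries ran from 16.7 to 35.7 CPM for muscle, from 38.3 to 89.0 CPM for mesenchyme and from 20.2 to 42.1 CPM for pigment cell genes, so that for mesenchyme and pigment cell genes all *Atf4* null libraries lay above them. Without that library, an alternative chosen after seeing the data, edgeR's test called 5 of 6 tested mesenchyme genes (*Col1a1*, *Col1a2*, *Col3a1*, *Dcn* and *Lum*), 2 of 4 pigment cell genes (*Dct* and *Pmel*) and 6 of 9 retinal and neuronal genes higher in *Atf4* null lenses. The part of these cells in the levels of the members was not tested.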
